A study of Mus musculus with 5 samples.

Results

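The Slit ligands and the Robo receptors were followed in newborn mice, in the visual relay nucleus of the thalamus (the dorsal lateral geniculate nucleus, dLGN), with and without a working copy of Sema6a. Every probe set (a group of array probes read as 1 value) that the platform annotation gives to Slit1, Slit2, Slit3, Robo1, Robo2 or Robo3 was taken, which gave 12 of the 45037 probe sets tested and 6 of 18193 named genes. Slit1 had 2 probe sets, Slit2 had 3, Slit3 had 1, Robo1 had 3, Robo2 had 1 and Robo3 had 2. The knockout group held 2 arrays from Sema6A-/- pups at postnatal day 0, and the comparison group held 3 arrays from pups of the same age that were heterozygous for the same allele, all on a C57BL/6 background and untreated. The heterozygous pups thus also carried 1 disrupted copy, and wild-type mice were not analysed here. Each array was hybridised with RNA from 1 pool of nuclei, taken from pups of 1 genotype and several litters, and p-values therefore measure the spread between pools. Neither the construction of the Sema6a allele nor the sex of the pups is stated in the labels.

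Slits are large secreted proteins that bind Robo receptors on growth cones and usually repel axons. In the developing forebrain Slit1 and Slit2 are known to keep thalamic axons away from the hypothalamus and the midline on their way to the cortex, and Robo1 and Robo2 are the receptors for this response. Robo3 is a divergent member that, in mammals, does not bind Slits with high affinity and is known for its part in midline crossing and in axons of the medial habenula.

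In the GRCm38.p6 annotation Slit1 lies at chr19:41597824-41747275, Slit2 at chr5:47981291-48307735 and Slit3 at chr11:35121456-35708507. Robo1 (chr16:72027518-73047491) and Robo2 (chr16:73891976-75447443) are neighbours on chromosome 16, and Robo3 lies at chr9:37416045-37433436. Slit2 and Slit3 each enclose a microRNA gene on the same strand as the host. Mir218-1 lies at chr5:48223942-48224051 and Mir218-2 at chr11:35616816-35616925. Both yield the same mature miR-218-5p, which is known to repress Robo1 and Robo2. Its sequence, from RefSeq on GRCm38.p6, is shown because a ligand gene here encloses a regulator of the ligand's own receptors. The capitals mark the seed, bases 2 to 8.
mmu-miR-218-5p: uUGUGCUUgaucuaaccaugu
The level of the microRNA was not analysed here.

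The windows from 250 bases before to 50 bases after an annotated start, also from RefSeq on GRCm38.p6, are shown for Slit2, Slit3 and Robo1, the genes with a probe set at an unadjusted p under 0.05 in the comparison below. Slit2 (chr5:47982905-47983204, plus strand), Slit3 (chr11:35121206-35121505, plus strand) and Robo1 (chr16:72662899-72663198, plus strand) were searched on both strands for GGGCGG, the GC box, for TATAAA, the TATA box, and for TAATTA, a core that homeodomain proteins bind. The capitals mark every match, and the matches of different motifs did not overlap.
Slit2: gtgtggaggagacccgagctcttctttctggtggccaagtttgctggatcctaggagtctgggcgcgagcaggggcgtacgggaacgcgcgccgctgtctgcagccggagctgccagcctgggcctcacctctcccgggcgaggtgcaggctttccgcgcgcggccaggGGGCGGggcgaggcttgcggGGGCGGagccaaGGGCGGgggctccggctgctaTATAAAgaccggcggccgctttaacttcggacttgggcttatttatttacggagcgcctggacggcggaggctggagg
Slit3: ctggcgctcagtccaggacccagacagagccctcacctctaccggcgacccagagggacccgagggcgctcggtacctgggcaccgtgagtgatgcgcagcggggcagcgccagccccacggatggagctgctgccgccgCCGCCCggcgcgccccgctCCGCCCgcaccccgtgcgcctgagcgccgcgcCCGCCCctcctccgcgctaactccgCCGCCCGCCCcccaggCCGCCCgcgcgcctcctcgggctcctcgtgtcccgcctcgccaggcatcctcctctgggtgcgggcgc
Robo1: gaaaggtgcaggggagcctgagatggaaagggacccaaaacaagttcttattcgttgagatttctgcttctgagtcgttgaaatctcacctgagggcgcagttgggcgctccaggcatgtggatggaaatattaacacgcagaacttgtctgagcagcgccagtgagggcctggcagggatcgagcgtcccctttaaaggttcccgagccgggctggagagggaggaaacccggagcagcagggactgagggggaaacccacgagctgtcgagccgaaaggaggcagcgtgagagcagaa
The Slit2 window held 3 GC boxes and a TATA box that begins 28 bases before the start, and 30 CpG dinucleotides. The Slit3 window held 6 GC boxes, of which a pair share bases, and 41 CpGs. Neither the Slit2 nor the Robo1 window lies at the outermost annotated start of its gene. The Robo1 window held none of the 3 motifs and 15 CpGs. Of 32851 such windows of mouse genes 35.7% held a GC box, 13.6% a TATA box and 5.29% the homeodomain core, and the median window held 7 CpGs. Among the windows of the Robo genes, Robo3 alone held GC boxes (3) and the homeodomain core (1), while the 3 windows of Robo2 held none of the motifs. A match of letters is a description and does not show a bound site.

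Sema6a, the gene named by the labels, had less signal in each knockout pool than in any heterozygous one. Its brightest probe set read 7.81 and 7.85 on the log2 scale in the knockout pools, against 10.47, 10.65 and 10.39 in the heterozygous pools. The log2 fold change, knockout over heterozygous as in all values that follow, was -2.68 with a standard error of 0.12 (limma adjusted p = 0.0236). Of the 16 measured markers of thalamic relay neurons, all lay at or above the median level of 6.39, with a summed signal of 66015 to 72118 in the knockout pools and 65410 to 67308 in the heterozygous pools. That sum gives most weight to bright genes, and 7 of the 16 differences were positive and 9 negative. Slc6a4 read 7.98 in knockout replicate 1 and 10.60 in knockout replicate 2, against 10.60 to 10.85 in the heterozygous pools. Calb2 read 11.70 and 12.33 in the knockout pools, against 10.19, 11.15 and 11.32 in the heterozygous pools. Rora was lower, at 12.36 and 12.19 in the knockout pools, against 12.68, 12.63 and 12.58 in the heterozygous pools. The median array values lay between 6.39 and 6.42. Knockout replicate 1 stood apart in markers of GABAergic and prethalamic neurons, which lie beside the dLGN. All 19 of these markers had a positive log2 fold change, and their summed signal was 10561 in knockout replicate 1 and 2350 in knockout replicate 2, against 1631 to 2656 in the heterozygous pools. Of these markers, 11 of 19 lay at or above the median level. The Slit and Robo differences and the medians of the pathway lists are therefore also given without that pool. Other values of single genes in the lists rest on all 5 arrays.

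None of the 12 Slit and Robo probe sets passed a limma adjusted p of 0.05, which 0.0733% of all probe sets did. In 8 of 12 probe sets the groups did not overlap, against a background of 27.3% of all probe sets, and 7 of these 8 were higher in the knockout (background 12.9%) and 1 was lower (background 14.5%). An unadjusted p under 0.05 was reached by 5 members, all higher, against 11.1% of all probe sets in either direction, 5.16% higher and 5.99% lower. The median log2 fold change was 0.33 over the 12 probe sets and -0.01 over all 45037. Probe sets of 1 gene share their pools and may read the same or different transcripts of that gene, which was not checked here, so these counts are not counts of independent genes. In dissected tissue, more cells that make a transcript cannot be told apart from more transcript per cell.

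**Figure D1:**
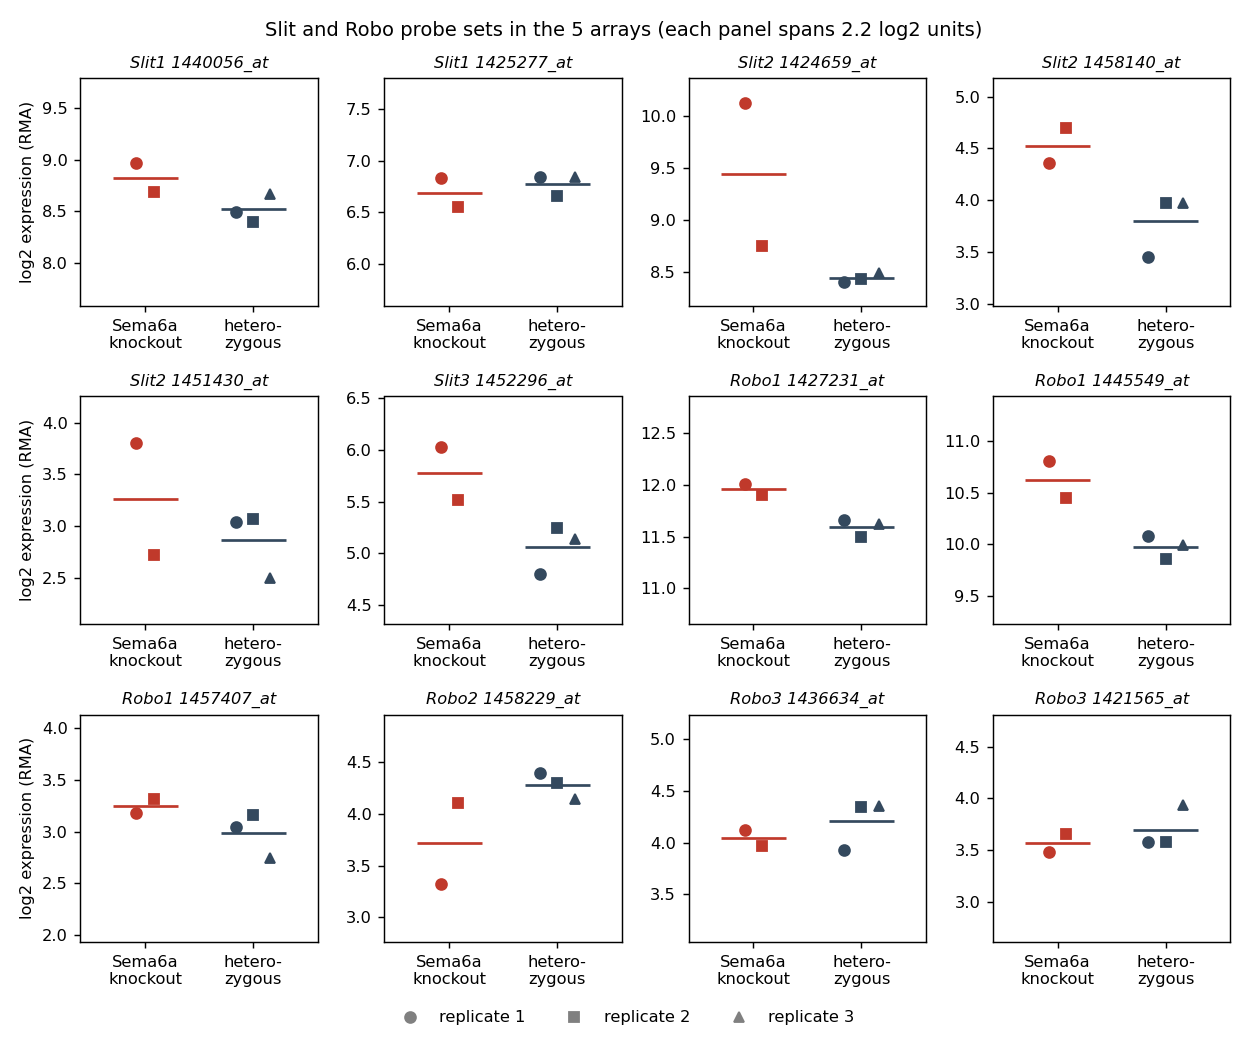
Log2 expression of each Slit and Robo probe set, with 1 point per pool, its shape giving the replicate number, and a line at the mean of each group. In 7 panels both knockout points (red) lie above every heterozygous point (dark), and in the panel of Robo2 both lie below.

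Robo1, the receptor that with Robo2 carries the Slit response of thalamic axons, was higher in the knockout at all 3 of its probe sets. At 1445549_at it read 10.80 and 10.44 in the knockout pools, against 10.08, 9.86 and 10.00 in the heterozygous pools. The gap of 0.36 between the lowest knockout and the highest heterozygous pool was about as large as the difference between the knockout pools. The log2 fold change was 0.64 (standard error 0.15, 95% interval 0.26 to 1.03), a 1.56-fold difference (limma unadjusted p = 0.00670, adjusted p = 0.254). At 1427231_at, its brightest probe set, Robo1 read 12.01 and 11.91 in the knockout pools, against 11.66, 11.50 and 11.63 in the heterozygous pools. Here the pools of each group lay close together, with a range of 0.10 in the knockout and 0.16 in the heterozygous group, and a gap of 0.25 between the groups. This probe set gave a log2 fold change of 0.36 (standard error 0.11, 95% interval 0.08 to 0.64, limma unadjusted p = 0.0204, adjusted p = 0.353). Without knockout replicate 1 the differences were 0.47 at 1445549_at and 0.31 at 1427231_at.

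The third Robo1 probe set, 1457407_at, lay far below the median level of 6.39, where the RMA scale is compressed. It read 3.18 and 3.31 in the knockout pools, against 3.04, 3.16 and 2.75 in the heterozygous pools. The groups were separated by a gap of 0.01, well within the spread of either group (limma adjusted p = 0.603). The difference was 0.26 with all arrays and 0.33 without knockout replicate 1.

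Robo2 was measured by 1 probe set, also below the median level, and was the only member whose knockout pools both lay below the heterozygous ones. It read 3.33 and 4.11 in the knockout pools, against 4.39, 4.30 and 4.15 in the heterozygous pools. Knockout replicate 1 was the low one, and knockout replicate 2 lay 0.04 below the lowest heterozygous pool. Robo2 gave a log2 fold change of -0.56 (standard error 0.25, 95% interval -1.18 to 0.05, limma unadjusted p = 0.0652, adjusted p = 0.485). Without knockout replicate 1 it was -0.17, and without knockout replicate 2 it was -0.95.

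Robo3 lay below the median level at both probe sets, and its groups overlapped at both. At 1436634_at it read 4.13 and 3.97 in the knockout pools, against 3.93, 4.34 and 4.35 in the heterozygous pools. At 1421565_at it read 3.48 and 3.65 in the knockout pools, against 3.58, 3.58 and 3.94 in the heterozygous pools, where the equal pair was identical in the deposited values. The log2 fold changes were -0.16 (95% interval -0.59 to 0.27) and -0.13 (95% interval -0.52 to 0.26), with limma adjusted p-values of 0.768 and 0.797. They were -0.24 and -0.04 without knockout replicate 1. With any 1 of the 5 arrays left out they ranged from -0.30 (without heterozygous replicate 1) to -0.08 (without knockout replicate 2) at 1436634_at, and from -0.21 (without knockout replicate 2) to -0.0095 (without heterozygous replicate 3) at 1421565_at. The habenula list stands for the nucleus where Robo3 is known from axons of medial neurons. Its genes had a summed signal of 3587 to 3876 in the knockout pools and 4024 to 4290 in the heterozygous pools. That sum gives most weight to the brightest gene of the list, Nhlh2. Nhlh2 read 10.9 and 10.6 in the knockout pools, against 11.3, 11.2 and 11.3 in the heterozygous pools. In that list 7 of 13 genes had negative differences, with a median of -0.00 and 0 past an adjusted p of 0.05. An unadjusted p under 0.05 was reached by 2 of the 13, or 15.4%, against 11.8% of all genes, and 6 of the 13 lay at or above the median level. Pou4f1, a transcription factor of habenular neurons, gave -1.08 and Nhlh2, a helix-loop-helix factor, -0.48, with limma adjusted p-values of 0.294 and 0.310. The part of habenular tissue in the values of Robo3 was not tested.

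Slit2, the ligand with the largest difference of the 6 genes at its brightest probe set, stood out in 1 pool. At 1424659_at it read 10.13 and 8.75 in the knockout pools, against 8.40, 8.43 and 8.49 in the heterozygous pools. Both knockout pools lay above every heterozygous pool, with replicate 1 far above and replicate 2 0.26 above the highest of them. The knockout mean was 9.44 ± 0.98 (SD, n = 2) and the heterozygous mean 8.44 ± 0.05 (SD, n = 3). This gave a log2 fold change of 1.00 (standard error 0.39, 95% interval 0.01 to 1.98), a 2.00-fold difference (limma unadjusted p = 0.0479, adjusted p = 0.444). Without knockout replicate 1 it was 0.30, and without knockout replicate 2 it was 1.69. Knockout replicate 1 is the pool with the high GABAergic and prethalamic signal described above, and their part in the value of Slit2 was not tested.

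The other Slit2 probe sets lay below the median level and did not order the knockout pools alike. At 1458140_at Slit2 read 4.35 and 4.70 in the knockout pools, against 3.45, 3.97 and 3.97 in the heterozygous pools, the last pair being identical in the deposited values. Here replicate 2 was the higher knockout pool, both pools lay above every heterozygous pool, and the log2 fold change was 0.73 (standard error 0.21, limma unadjusted p = 0.0163, adjusted p = 0.333). Without knockout replicate 1 it was 0.90. At 1451430_at Slit2 read 3.80 and 2.72 in the knockout pools, against 3.04, 3.07 and 2.50 in the heterozygous pools, so the groups overlapped. The log2 fold change of 0.39 (limma adjusted p = 0.727) became -0.15 without knockout replicate 1.

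Slit3, the ligand known mainly from vessels, diaphragm and kidney and present in parts of the brain, was higher in both knockout pools at its single probe set. That probe set lay below the median level. Slit3 read 6.03 and 5.52 in the knockout pools, against 4.80, 5.25 and 5.14 in the heterozygous pools. The gap between the groups was 0.27, less than the difference of 0.52 between the knockout pools. Slit3 gave a log2 fold change of 0.71 (standard error 0.22, 95% interval 0.17 to 1.25), a 1.64-fold difference (limma unadjusted p = 0.0183, adjusted p = 0.342). Without knockout replicate 1 it was 0.45.

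Slit1, the ligand most restricted to the nervous system, gave differences of opposite sign at its 2 probe sets, both of which lay above the median level. At 1440056_at it read 8.97 and 8.68 in the knockout pools, against 8.50, 8.40 and 8.66 in the heterozygous pools. The groups were separated by 0.02, and the log2 fold change was 0.31 (standard error 0.15, 95% interval -0.06 to 0.67, limma adjusted p = 0.518). At 1425277_at it read 6.83 and 6.55 in the knockout pools, against 6.84, 6.66 and 6.84 in the heterozygous pools, with a log2 fold change of -0.09 (95% interval -0.43 to 0.26, limma adjusted p = 0.850). Without knockout replicate 1 the differences were 0.16 and -0.23.

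**Figure D2:**
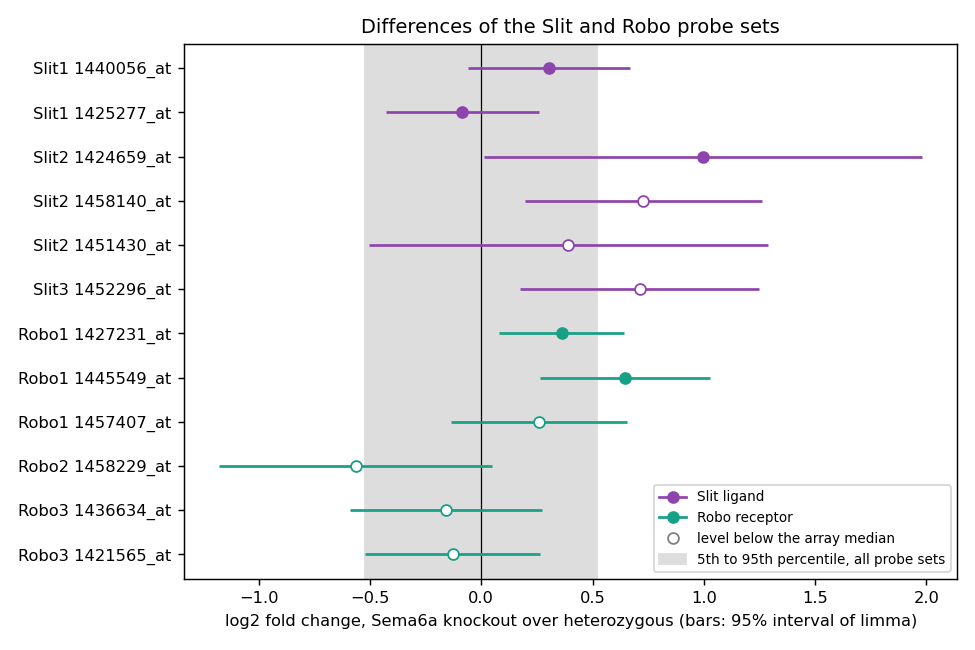
Log2 fold change of each probe set (knockout over heterozygous) with its 95% limma interval, filled for a level at or above the median and open below it. The grey band spans the 5th to the 95th percentile of all probe sets, -0.52 to 0.52. The intervals of 5 probe sets (2 of Slit2, 1 of Slit3 and 2 of Robo1) lie wholly above 0 before any adjustment for multiple tests.

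An exact two-sided permutation test of a single probe set could not give a p below 0.1 with 2 pools against 3. That smallest value was reached by 1424659_at and 1458140_at of Slit2, 1452296_at of Slit3, 1427231_at and 1445549_at of Robo1 and 1458229_at of Robo2. The number of arrays therefore limits what can be said of each member.

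The knockout pools were set side by side, each against the heterozygous mean. The median deviation of the 6 Slit probe sets was 0.75 in knockout replicate 1 and 0.23 in knockout replicate 2, and that of the 6 Robo probe sets was 0.06 and 0.13. The medians over all probe sets were -0.01 in knockout replicate 1 and -0.00 in knockout replicate 2. At 1424659_at Slit2 deviated by 1.69 in replicate 1 and by 0.30 in replicate 2, whereas at 1427231_at Robo1 deviated by 0.41 and 0.31. In the deposited control probe sets the 3′ end of Gapdh exceeded the 5′ end by 2.34 in knockout replicate 1 and 0.96 in knockout replicate 2, against 0.77 to 1.33 in the heterozygous pools. The part of RNA integrity in the high Slit values of knockout replicate 1 was not tested.

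**Figure D3:**
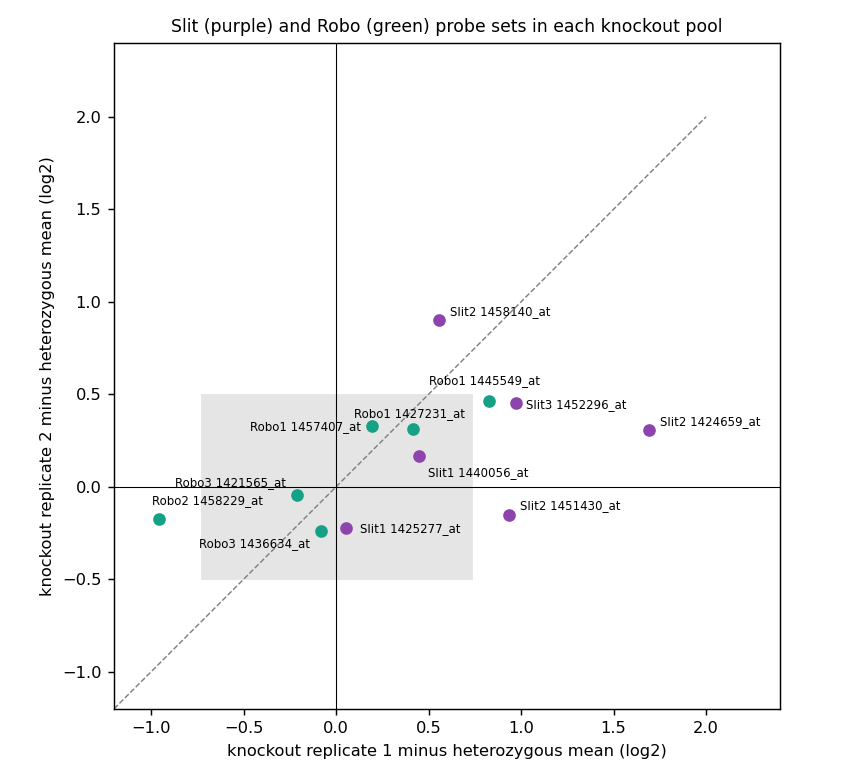
Deviation of each probe set from the heterozygous mean in knockout replicate 1 (horizontal, log2) and knockout replicate 2 (vertical, log2). The grey box spans the 5th to the 95th percentile of all probe sets in each pool, and points on the dashed line deviate equally in both pools. Slit2 1424659_at lies far to the right of the line, at 1.69 and 0.30.

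Genes whose values followed Slit2 and Slit3, the members with the largest SD over the 5 arrays at their brightest probe sets, were sought among the brightest probe sets at or above the median level. Likeness was the root mean square difference of values centred over the 5 arrays. For Slit2 (SD 0.734) the nearest of 11746 genes were Rab26, a small GTPase of secretory vesicles, at 0.0725, Zar1, known from oocytes, at 0.0848 and 6330409D20Rik at 0.104. Rab26 read 8.13 and 6.75 in the knockout pools, against 6.37, 6.47 and 6.67 in the heterozygous pools, so it too was high in knockout replicate 1. For Slit3 (SD 0.461) they were Stbd1, a glycogen-binding protein, at 0.0482, 4732491K20Rik at 0.0719 and Efcab10 at 0.0776. With 5 arrays and this many genes, near matches are a description only.

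Proteins that bind Slits or Robos at the cell surface were examined next, each at its brightest probe set. Of 21 measured genes 0 passed a limma adjusted p of 0.05, as did 0.104% of all 18193 genes, and 5 had an unadjusted p under 0.05, all higher in the knockout, against 11.8% of all genes (6.9% higher and 4.9% lower). The groups did not overlap for 8 of the 21, 7 higher and 1 lower, where the background was 29.7% (15.8% higher and 13.9% lower). The median log2 fold change of the list was 0.05, and 0.06 without knockout replicate 1, against 0.01 for all genes. Flrt3, a coreceptor that in mouse thalamic axons modulates Robo1 signalling, read 7.73 and 8.06 in the knockout pools, against 7.01, 6.89 and 7.14 in the heterozygous pools. Its groups were well apart, with a log2 fold change of 0.88 (limma adjusted p = 0.156). Dcc, the netrin receptor whose attraction Robo1 can silence, read 9.80 and 10.51 in the knockout pools, against 9.09, 9.21 and 9.22 in the heterozygous pools, a difference of 0.98 (limma adjusted p = 0.240). Flrt2 gave 0.59, Sdc2, a heparan sulphate proteoglycan, 0.71 and Cdh2, the neural cadherin, 0.29, with limma adjusted p-values from 0.195 to 0.431. Robo4, the family member of endothelial cells, gave 0.29 (limma adjusted p = 0.510). The 14 measured endothelial markers, which include Robo4, had a summed signal of 11468 to 12293 in the knockout pools and 9024 to 10947 in the heterozygous pools, with 11 of 14 positive. That sum gives most weight to bright genes. The groups did not overlap for 6 of the 14, all higher, against 29.7% of all genes and 15.8% higher. A limma unadjusted p under 0.05 was reached by 3 of the 14, all higher, against 11.8% of all genes and 6.9% higher. Of the 14 markers 12 lay at or above the median level. The part of endothelial cells in Robo4 and the Slits was not tested.

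Heparan sulphate, the sugar chain that Slit and Robo need for tight binding, is built and trimmed by the next group. Of 10 measured genes 0 passed the adjusted threshold, 0 were higher and 2 lower at an unadjusted p under 0.05 (4.9% of all genes were lower), and the median log2 fold change was -0.18, and 0.03 without knockout replicate 1. The groups did not overlap for 5 of the 10, 2 higher and 3 lower, against 29.7% of all genes, 15.8% higher and 13.9% lower. The 3 lower genes were all 6-O-sulphotransferases. Hs6st2 read 12.70 and 11.86 in the knockout pools, against 12.95, 12.94 and 12.91 in the heterozygous pools, a difference of -0.66, and knockout replicate 2 was the lower pool. Hs6st3 gave -0.31 and Hs6st1 -0.24, and the limma adjusted p-values of the 3 genes were 0.431, 0.417 and 0.561. Sulf1, which removes 6-O-sulphates outside the cell, read 8.73 and 11.01 in the knockout pools, against 8.30, 8.88 and 8.99 in the heterozygous pools. It was thus high in knockout replicate 2 alone and its groups overlapped (limma adjusted p = 0.587). Glce, the epimerase, gave 0.48 and Ext2, a chain polymerase subunit, -0.65, with adjusted p-values of 0.496 and 0.508.

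The intracellular arm of the pathway, which links Robos to actin through srGAPs, Abl, Ena/VASP and small GTPases, was centred on no difference. Of 25 measured genes 0 passed the adjusted threshold, 2 were higher and 0 lower at an unadjusted p under 0.05, and the groups did not overlap for 5. These shares, 8% and 20%, lay below the 11.8% and 29.7% of all genes. Their median difference on the log2 scale was 0.00 with all arrays and 0.02 without knockout replicate 1. Rhoa, a GTPase that drives actin contraction, read 11.75 and 11.27 in the knockout pools, against 11.05, 10.94 and 10.69 in the heterozygous pools, a difference of 0.61 (limma adjusted p = 0.358). Cap2, an actin-binding protein, gave 0.64 (limma adjusted p = 0.302) and its relative Cap1 -0.67 (limma adjusted p = 0.489). Myo9b, a myosin that binds Robo1, gave 0.17, Vasp, of the Ena/VASP family, -0.19 and the adaptor Nck1 -0.34. Their limma adjusted p-values ran from 0.589 to 0.608.

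Transcription factors held to act upstream of Slit or Robo genes in some part of the nervous system, or to pattern the neurons that express them, were measured at 14 genes, of which 0 passed the adjusted threshold. The log2 fold change was positive for 11 of the 14, with a median of 0.33 (0.25 without knockout replicate 1), and for 9396 of all 18193 genes, with a median of 0.01. An unadjusted p under 0.05 was reached by 4, all higher, against 11.8% of all genes (6.9% higher). The groups did not overlap for 9, 7 higher and 2 lower, against 29.7% of all genes, 15.8% higher and 13.9% lower. Lhx2, which in mouse thalamus is known to repress Robo1 and Robo2, read 7.87 and 8.33 in the knockout pools, against 7.14, 7.39 and 7.89 in the heterozygous pools. Its groups overlapped, with a difference of 0.63 (limma adjusted p = 0.472). Bcl11a, a zinc finger factor of cortical and other neurons, gave 0.92, Foxp2, a factor of thalamic neurons, 0.48 and Tcf4 0.46, with limma adjusted p-values from 0.307 to 0.382. Isl1, a factor of prethalamic neurons that is known to control Slit2 in motor neurons, read 9.12 and 4.59 in the knockout pools, against 2.87, 3.94 and 3.68 in the heterozygous pools. It was high in knockout replicate 1, with a difference of 3.36 (limma adjusted p = 0.431) that was smaller than the one between the knockout pools. Slit2 was also high in that pool at 1424659_at. At 1458140_at Slit2 read 4.35 there and 4.70 in knockout replicate 2. The part of Isl1 in the values of Slit2 was not tested. Nkx2-2, a factor of the zone between thalamus and prethalamus, read 10.23 and 8.72 in the knockout pools, against 8.67, 7.96 and 8.37 in the heterozygous pools (limma adjusted p = 0.464).

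**Figure D4:**
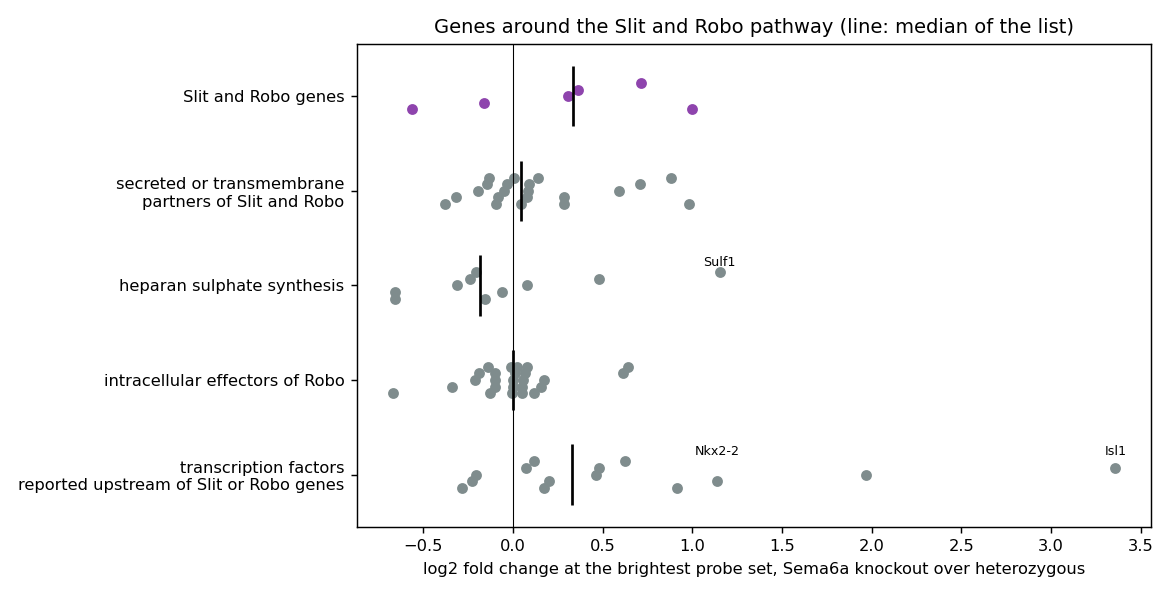
Log2 fold change of genes, each at its brightest probe set (knockout over heterozygous), with a row per list and a line at its median. The 6 Slit and Robo genes have a median of 0.33, the surface partners 0.05, heparan sulphate genes -0.18, effectors 0.00 and transcription factors 0.33. Genes beyond 1.1 in size that the text names are labelled.

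Markers of the other cell types that a dLGN dissection can hold were measured beside the family. Microglia markers were higher in both knockout pools, in 17 of 17 genes, with a summed signal of 11245 to 15763 in the knockout pools and 2634 to 3305 in the heterozygous pools. Lyz2, Tyrobp and Ly86 rose, by 2.98, 2.46 and 2.42 (limma adjusted p = 0.0236 each). With the replicate number as a block, or with any 1 array left out, 0 of the 45037 probe sets passed, so these calls and that of Sema6a were lost there. Among the GABAergic and prethalamic markers Npy gave 2.42 and Gata2 0.43, with 0 of 19 past the adjusted threshold. The median log2 fold change was -0.07 over relay neuron markers, 0.18 over cortical and hippocampal markers, 0.23 over endothelial markers, -0.33 over meningeal markers, 0.21 over choroid plexus markers, 0.09 over astrocyte markers and 0.21 over oligodendrocyte markers, with 0 genes of these lists past the adjusted threshold. The oligodendrocyte markers had a summed signal of 12714 to 14007 in the knockout pools and 9824 to 10688 in the heterozygous pools. That sum gives most weight to bright genes, and of the 13 genes 9 had a positive and 4 a negative difference. Sox10 gave 0.83, whereas Mag gave -0.92 and Enpp6 -0.53, with limma adjusted p-values from 0.254 to 0.270. For meningeal markers the summed signal was 3337 to 3410 in the knockout pools. It was 3491, 3628 and 6111 in heterozygous replicates 1, 2 and 3, so 1 heterozygous pool stood apart. Which of these cells make the Slit and Robo signal was not tested.

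**Figure D5:**
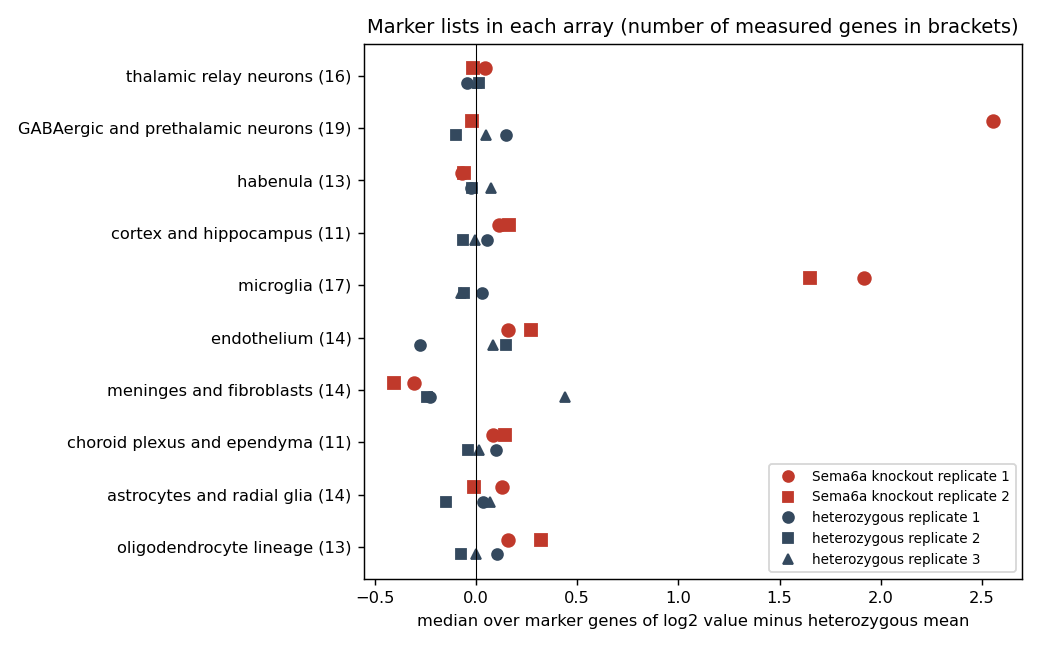
Median over the markers of each cell type of the log2 value minus the heterozygous mean, with 1 point per array, red for knockout and dark for heterozygous pools. GABAergic and prethalamic markers stand at 2.55 in knockout replicate 1 and -0.02 in knockout replicate 2, and microglia markers stand at 1.92 and 1.65, while every heterozygous point of these lists lies between -0.10 and 0.15.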

How the data were processed

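Total RNA of pooled dLGN tissue, 20 ng per sample, was amplified, biotin-labelled and hybridised to Affymetrix arrays, per the labels' protocols. The authors deposited 1 log2 value per probe set and array, computed with RMA per the submitters' processing notes. No version or settings of RMA were found, and that the scale is log2 was judged from the size of the values. RMA equalises the distributions of arrays, which hides a shift common to most genes, and it compresses differences of dim probe sets.

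Groups came from the sample titles, 2 knockout and 3 heterozygous arrays. Of 45101 probe sets, 64 array control probe sets were left out. A linear model with genotype alone was fitted to each probe set in limma 3.58.1 (lmFit, eBayes; R 4.3.3). Its two-sided p-values were adjusted by Benjamini and Hochberg's method over 45037 probe sets. The number of arrays limits the precision. The fit was tested on simulated data. In gene lists each gene was represented by its brightest probe set, the one with the highest mean over the arrays, among probe sets with 1 gene symbol. The summed signal of a list is the sum of these values after the log2 was undone. All member probe sets were named. Other genes could be named if they were among the 6 of a pathway list or the 3 of a marker list with the smallest unadjusted p, or the 3 most like each of the 2 most variable members. Slc6a4 was named besides, for the difference between its knockout pools. The members, lists and rules were chosen with earlier results of these data known. The lists were written from general knowledge, and genes without a probe set in the annotation used here were passed over. As alternatives the fit was repeated with a block for the replicate number, after another quantile normalisation or median centring, without dim probe sets, with an intensity trend, a robust prior or array weights, without each array, and on genes averaged over their probe sets. Of the 6 genes, 5 had a promoter window in the RefSeq table of GRCm38.p6.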

Additional observations from a re-analysis of the deposited data

Results flagged for a closer look

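The control probe sets took no part in the comparison. Among them, the 3′ minus 5′ difference of knockout replicate 1 exceeded that of every heterozygous pool. It was 2.34 for Gapdh, against at most 1.33 in the heterozygous pools, and 1.91 for Actb, against at most 1.45, both on the log2 scale. That pool also held the highest value of Slit1 1440056_at, Slit2 1424659_at and 1451430_at, Slit3 1452296_at and Robo1 1427231_at and 1445549_at, and the lowest value of Robo2 1458229_at and of Robo3 1421565_at. Over all probe sets its deviations from the heterozygous mean also spread more widely. Their 5th to 95th percentile ran from -0.73 to 0.74, against -0.50 to 0.50 in knockout replicate 2. How often that pool held the extreme value over all probe sets was not counted.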

How the results depend on the processing

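Limma's adjusted p stayed above 0.05 for every Slit and Robo probe set under every alternative run, and the lowest adjusted p was 0.0728, for Slit2 1424659_at without knockout replicate 2. Of 137 values of single probe sets under alternatives, 135 kept their sign. The exceptions were Slit1 1425277_at at 0.053 without knockout replicate 2 (range -0.23 to 0.053 with 1 array left out) and Slit2 1451430_at at -0.15 without knockout replicate 1 (range -0.15 to 0.93), neither past the threshold in any setting. The number at an unadjusted p under 0.05 was 5 with all arrays and 3 with the replicate block (11% of all probe sets). With the filter on dim probe sets it was 3 of the 5 members kept (15% of all probe sets kept). It lay between 2 and 7 with 1 array left out: 2 without knockout replicate 1, 7 without knockout replicate 2, 3 without heterozygous replicate 1, 3 without heterozygous replicate 2 and 4 without heterozygous replicate 3. The share of all probe sets moved too, and was 8.81% without knockout replicate 1, 18.6% without knockout replicate 2 and 8.20% to 8.74% without a heterozygous array, against 11.1% with all arrays. The fit then assumes that a lone knockout array varies like the heterozygous ones. The replicate numbers are not stated to pair the pools, and the deviations of same-numbered pools correlated at 0.15 for number 1 and 0.21 for number 2. The deviations of the 2 knockout pools mirror each other, so unmatched numbers gave -0.15 and -0.21. Heterozygous replicate 3 gave 0.06 with knockout replicate 1 and -0.06 with knockout replicate 2. These correlations cannot settle whether the pools were paired. Over all probe sets the count past the adjusted threshold, 33, was 0 with the replicate block, 114 with the filter on dim probe sets, 100 with an intensity trend, 19 with array weights and 0 to 0 with any 1 array left out, and the cause was not tested. The count of members whose groups do not overlap, 8, lay between 8 and 10 with 1 array left out. It was 7 after a further quantile normalisation. The share of all probe sets was 27.3% with all arrays and was not counted under these alternatives, so the counts cannot be set against a background. These alternatives were chosen after seeing the data, and fewer arrays overlap less often by construction. With the probe sets of a gene averaged, Slit2 gave 0.71 and Slit1 0.11. Most members lay below the median level, 7 of 12, which limits what their values can show.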
